A study of Rattus norvegicus with 6 samples.

Results

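The genes described here are those of mitochondrial and peroxisomal fatty acid beta-oxidation in rat liver, together with the transport, electron transfer, thioesterase and organelle genes that serve it. A list of 32 genes was matched to the gene symbols of the deposited table by exact spelling. Of these, 30 were found among 33022 loci, each on a single locus, whereas Eci2 and Acot1 had no row under those symbols. Echs1, the short-chain enoyl-CoA hydratase of mitochondria, was listed at 0 in all 6 libraries and was therefore found but not compared. The 29 genes compared comprised 17 mitochondrial and 11 peroxisomal genes and Acad11, an acyl-CoA dehydrogenase that was placed in neither group. All 29 passed the filter applied to every locus, which was an average over the libraries of at least 1 FPKM (fragments normalized to transcript length and to the number mapped). That filter left 10201 loci with a symbol.

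Livers came from male obesity-prone Sprague Dawley rats with an initial body weight of 160 to 190 g. The rats ate either a control diet (CD) or a Western diet (WD), which is rich in milk-derived saturated fat, sucrose and cholesterol, for 2 weeks. For each diet, total RNA was sequenced beside a light fraction of a sucrose gradient, in which an mRNA carries up to 3 ribosomes, and a heavy fraction, in which it carries 4 or more. Each of the 6 libraries pooled RNA from 3 rats, so there is 1 library per diet and kind of RNA, no replicate and no test of a diet effect. The study describes an overnight fast of these rats followed by 1 h of refeeding with their own diet, and their age is not given.

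Fatty acids enter mitochondria as carnitine esters and are then shortened by repeated rounds of dehydrogenation, hydration, a second dehydrogenation and thiolysis, which yield acetyl-CoA, NADH and reduced electron transfer flavoprotein. Peroxisomes run a similar spiral on very long-chain and branched-chain acids and on bile acid intermediates, but their first step is an oxidase that passes electrons to oxygen. In liver the pathway feeds ketogenesis during fasting, and many of its genes are targets of the nuclear receptor PPARα.

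The livers were checked against marker genes. All 6 hepatocyte markers were found, and they summed to between 43627 and 135415 FPKM per library. In total RNA, 5 of the 6 were lower in WD, against 47.0% of all loci compared, with a median log2 change of -0.13. A ratio of at most 0.75 was reached by 2 (Apoa1 and Ttr), against 22.7% of all loci. The sums were 86061 FPKM in CD and 78459 in WD. Kupffer cell markers summed to between 69.9 and 174 FPKM, endothelial markers to between 48.7 and 70.9, stellate cell markers to between 40.4 and 75.2 and cholangiocyte markers to between 0 and 4.35. In total RNA, Kupffer cell markers summed to 79.6 FPKM in CD and 112 FPKM in WD. All 6 of them were higher in WD, as were all 4 endothelial markers found, against 51.1% of all loci. Wherever an interval for counting error, described below, could be given for these Kupffer cell and endothelial ratios, it included 1. The adipocyte genes Adipoq, Plin1 and Lep were listed at 0 in all libraries, as was the cholangiocyte gene Krt7, and the remaining adipocyte gene, Cidec, ranged from 13.3 to 35.4 FPKM. The WD light fraction stood apart from the other libraries. Its depth relative to the CD heavy fraction was 2.34, against 1.02 to 1.57 for the other libraries, and its 4 red blood cell markers found, of 6 listed, summed to 503 FPKM, against 17.1 to 98.5 in the other libraries. The markers did not go together. In the WD light fraction the globin genes Hba1, Hba2 and Hbb were at their highest, with 163, 91.0 and 242 FPKM, whereas Alas2 was at its lowest, with 7.18 FPKM. The part of these shifts in the results was not tested, and in such bulk samples fewer cells of a type and less RNA per cell cannot be told apart.

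Whole fragment numbers could be inferred from the FPKM values for 23 of the 29 genes, with 10 to 990 fragments per gene and library. Intervals given below as 95% are exact intervals on those numbers. They cover counting error only and compare libraries, not diets. Whether an interval excludes 1 depends on fragment number. These genes had a median of 178 fragments in CD total RNA and 176 in the CD heavy fraction. All loci compared with such numbers had medians of 15 and 9. Shares of intervals set below beside those of all loci are therefore not at like depth, and the part of depth in them was not tested. The bounds that Cufflinks gave beside each value were much wider, with upper bounds at least 74.7% above the value, and those of WD and CD overlapped for all 29 genes in total RNA, in the light fraction and in the heavy fraction.

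As the beta-oxidation genes include many PPARα targets, promoters from RefSeq on the GRCr8 assembly, which span 250 bases before to 50 after each gene's start, were searched on both strands. Of the 32 genes, 29 had a promoter in that table. The hexamer AGGTCA, the core that nuclear receptors read, was found in 7 of the 29 (24.1%) and in 16.2% of all 33469 promoters. The 7 were Acad11, Acadvl, Echs1, Eci1, Eci2, Hadhb and Hsd17b4. The direct repeat of this core with a spacer of 1 base, with 1 base of each copy left free, was in 0 of 29 and in 0.415% of all promoters, and TATAAA was in 2 of 29 (6.90%, Acad11 and Echs1) and in 14.2% of all. These are matches of letters in a short window and are not binding sites. Acadvl, which encodes the very long-chain acyl-CoA dehydrogenase, held the hexamer 2 times, and Eci1, an enoyl-CoA isomerase, held it once, on the strand opposite to the gene. The mRNA of Eci1 was lower in WD in every kind of RNA. Those of Acad11 and Hsd17b4 were too, but those of Acadvl and Hadhb were not, and a link between hexamer and diet was not tested. The windows of Acadvl and Eci1 are shown with the hexamer in capitals.
Acadvl at chr10:55236857-55236886, minus strand, hexamer 169 bases before the gene's start: atggatcaccctAGGTCAagtagaatacag
Acadvl at chr10:55236705-55236734, minus strand, hexamer 17 bases before the start: agacgggagaagAGGTCAgtggtcaaggct
Eci1 at chr10:13961144-13961173, minus strand, hexamer 94 bases before the start: ccgcccttcaggAGGTCAagatcagccagt

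The genes were among the better expressed of the liver. In CD total RNA the levels, which FPKM expresses per transcript length, ran from 570 FPKM for Phyh, the phytanoyl-CoA hydroxylase of alpha-oxidation, down to 10.1 FPKM for Acot2. Hadh, Acaa2, Acadl and Hsd17b4 followed Phyh with 488, 469, 378 and 307 FPKM, and Cpt2, Slc25a20, Hacl1 and Acot2 were the lowest with 26.6, 20.6, 20.2 and 10.1 FPKM. The 29 genes summed in total RNA to 4778 FPKM for CD and 4280 FPKM for WD, to 3245 and 2834 FPKM in the light fraction and to 8410 and 7384 FPKM in the heavy fraction. Of the FPKM of all loci with a symbol, they took 0.724% (CD) and 0.693% (WD) of total RNA, and 1.22% and 1.05% of the heavy fraction.

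In total RNA, 22 of the 29 genes were lower in WD than in CD, against 47.0% of all loci compared and 49.6% of loci averaging 10 FPKM or more. A ratio of WD to CD of at most 0.75 was reached by 11 genes (37.9%), against 22.7% of all loci and 16.2% of loci averaging 10 FPKM or more, as all 29 genes did. The 11 were Cpt1a, Cpt2, Slc25a20, Acads, Hadha, Eci1, Etfb, Acot2, Ehhadh, Decr2 and Pex11a. No gene reached a ratio of 1.5, against 17.7% of all loci and 8.77% of those averaging 10 FPKM or more, and the highest ratio was that of Crot. The median ratio was 0.858, and that of all loci was 1.02. The 95% counting interval lay below 1 for 9 of the 23 genes with fragment numbers (39.1%), against 5.17% of loci with such numbers and 7.59% of those averaging 10 FPKM or more. It lay above 1 for 0 genes, against 5.0% of loci. Nearest to the 0.75 limit were Cpt1a inside it, with 0.727, and Abcd3 outside it, with 0.804. The directions depend on the scale. After the libraries were put on an equal sum of FPKM over named loci, which moved the median log2 change of all loci from 0.02 to 0.12, 17 genes were lower and 12 higher, against 41.2% of all loci lower, and 7 had a ratio of at most 0.75.

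**Figure D1:**
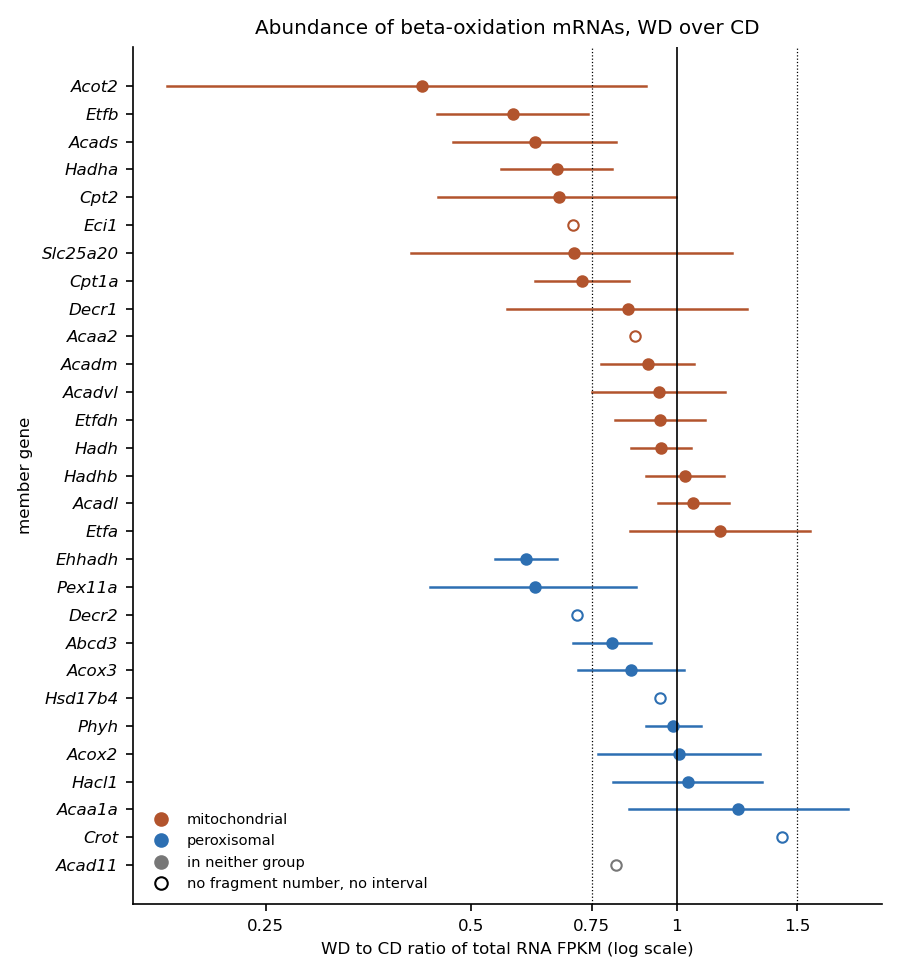
WD to CD ratio of total RNA FPKM for each of the 29 genes on a log axis, grouped by compartment, with the 95% counting interval where fragment numbers were available (open circles have none). Dotted lines mark 0.75 and 1.5, and 11 genes lie at or left of 0.75 while no gene lies at or right of 1.5.

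The carnitine shuttle was lower in WD total RNA at each of its 3 steps. Cpt1a (chromosome 1, 218569509 to 218629678, Rnor_6.0), the outer membrane carnitine palmitoyltransferase that controls entry and is inhibited by malonyl-CoA, had 82.0 (CD) and 59.6 (WD) FPKM in total RNA, 78.1 and 73.4 in the light fraction, and 106 and 82.2 in the heavy fraction. The WD value was the lower one in all 3 kinds of RNA, with a ratio of 0.727 (95% interval 0.620 to 0.851) in total RNA and 0.779 (0.658 to 0.922) in the heavy fraction. Cpt2 (chromosome 5, 127505613 to 127523089), the inner membrane enzyme that returns the acyl group to CoA, had 26.6 and 17.9 FPKM in total RNA, 24.4 and 19.3 in the light fraction, and 39.96 and 37.8 in the heavy fraction. Its total RNA ratio was 0.672 (0.447 to 0.999), so that the interval barely stayed below 1. Slc25a20 (chromosome 8, 117455261 to 117476734), the carnitine-acylcarnitine carrier, had 20.6 and 14.5 FPKM in total RNA, 24.4 and 29.2 in the light fraction, and 27.1 and 18.8 in the heavy fraction. With 25 to 37 fragments in total RNA its ratio of 0.708 had an interval of 0.408 to 1.21 and could not be told from 1.

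The acyl-CoA dehydrogenases, which open each round, did not move together. Acads (chromosome 12, 47254483 to 47263747), the short-chain enzyme, had 81.0 (CD) and 50.2 (WD) FPKM in total RNA, 53.1 and 30.4 in the light fraction, and 139 and 151 in the heavy fraction. It was thus lower in WD in total RNA (ratio 0.621, interval 0.469 to 0.815) and in the light fraction (0.574, 0.408 to 0.807), but not in the heavy fraction (1.08, 0.867 to 1.35). Acadm (chromosome 2, 260124417 to 260148589), the medium-chain enzyme, had 172 and 156 FPKM in total RNA, 123 and 187 in the light fraction, and 134 and 102 in the heavy fraction. Its total RNA ratio of 0.906 had an interval that included 1 (0.774 to 1.06), whereas the light fraction was higher in WD (1.51, 1.27 to 1.81) and the heavy fraction lower (0.759, 0.601 to 0.958). The long-chain enzyme Acadl had ratios of 1.06, 0.791 and 0.704 in total, light and heavy RNA, and Acadvl had 0.940, 1.06 and 0.701. For both, the heavy fraction interval lay below 1 (0.614 to 0.807 for Acadl and 0.591 to 0.831 for Acadvl) while the total RNA interval included 1. Acad11 was at 154 and 126 FPKM in total RNA and at 404 and 397 in the heavy fraction, and its ratios were 0.816, 0.737 and 0.983.

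The trifunctional protein is built from the products of Hadha, which carries the hydratase and long-chain 3-hydroxyacyl-CoA dehydrogenase, and Hadhb, which carries the thiolase. These genes lie next to each other on chromosome 6 (27589656 to 27629175 for Hadha and 27555411 to 27582995 for Hadhb in Rnor_6.0), with a gap of 6661 bases between the loci. Their RefSeq promoter windows on opposite strands of GRCr8 share 200 of 300 bases, which places the starts much nearer to each other than that gap. The gene models or assemblies thus differ between these sources, and the effect on the levels below was not tested. Hadha had 94.2 (CD) and 62.9 (WD) FPKM in total RNA, 47.0 and 59.1 in the light fraction, and 49.5 and 39.5 in the heavy fraction. Hadhb had 234 and 240 FPKM in total RNA, 195 and 94.5 in the light fraction, and 379 and 363 in the heavy fraction. The pair therefore went different ways. Hadha was lower in WD total RNA (0.668, 0.553 to 0.804) while Hadhb was not (1.03, 0.900 to 1.17), and in the light fraction Hadhb was lower (0.485, 0.408 to 0.576) while the interval of Hadha included 1 (1.26, 0.997 to 1.59). The level of Hadha relative to Hadhb was 0.403 in CD (0.347 to 0.467) and 0.262 in WD (0.220 to 0.311) in total RNA, 0.241 (0.190 to 0.305) and 0.626 (0.528 to 0.742) in the light fraction, and 0.131 and 0.109 in the heavy fraction. The intervals of the diets did not overlap in total RNA or in the light fraction, and they overlapped in the heavy fraction (0.104 to 0.163 in CD and 0.0850 to 0.138 in WD).

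Of the other mitochondrial spiral enzymes, Hadh, the short-chain 3-hydroxyacyl-CoA dehydrogenase, had 488 and 463 FPKM in total RNA, with a ratio of 0.949 (0.858 to 1.05). Acaa2, the matrix thiolase, had 469 and 407 FPKM in total RNA and 1148 and 1025 in the heavy fraction, the highest heavy fraction level of the 29 genes in both diets. Its ratios of 0.867, 0.827 and 0.893 were below 1 in all 3 kinds of RNA. The enzymes for unsaturated acids were lower as well. Eci1 (chromosome 10, 13797561 to 13810913), the isomerase shown above with its promoter hexamer, had 134 and 94.8 FPKM in total RNA, 63.0 and 38.1 in the light fraction, and 284 and 176 in the heavy fraction. Its ratios of 0.705, 0.606 and 0.619 were all at most 0.75, but no counting interval could be given. Decr1, the 2,4-dienoyl-CoA reductase, had ratios of 0.848, 0.778 and 0.702, and only the last had an interval below 1 (0.507 to 0.966).

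Electrons from the dehydrogenases pass to electron transfer flavoprotein, a dimer of the Etfa and Etfb products, and on to ubiquinone through Etfdh. Etfb (chromosome 1, 98472744 to 98486976) had 220 (CD) and 127 (WD) FPKM in total RNA, 156 and 125 in the light fraction, and 593 and 465 in the heavy fraction. Its total RNA ratio of 0.576 (0.445 to 0.741) was the lowest of the mitochondrial genes apart from Acot2, and its heavy fraction ratio was 0.784 (0.660 to 0.931). Etfa had 64.8 and 74.9 FPKM in total RNA, with a ratio of 1.16 (0.853 to 1.57). The level of Etfa relative to Etfb was thus 0.294 in CD (0.224 to 0.383) and 0.591 in WD (0.440 to 0.792) in total RNA, but 0.377 and 0.397 in the heavy fraction, where the intervals overlapped (0.313 to 0.454 and 0.323 to 0.487). Etfdh had ratios of 0.945, 0.838 and 0.846, and the interval lay below 1 in the heavy fraction (0.751 to 0.954) and, barely, in the light fraction.

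Acot2 (chromosome 6, 107423217 to 107467487), a mitochondrial acyl-CoA thioesterase, was the lowest in level in total RNA and rested there on the fewest fragments. It had 10.1 (CD) and 4.21 (WD) FPKM in total RNA, 5.88 and 11.6 in the light fraction, and 22.7 and 14.2 in the heavy fraction. These values came from 25 and 10 fragments in total RNA, 10 and 43 in the light fraction and 36 and 23 in the heavy fraction. The total RNA ratio of 0.424 had an interval of 0.179 to 0.902. The thioesterases of this cluster are closely similar in sequence, so the assignment of its reads is uncertain.

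**Figure D2:**
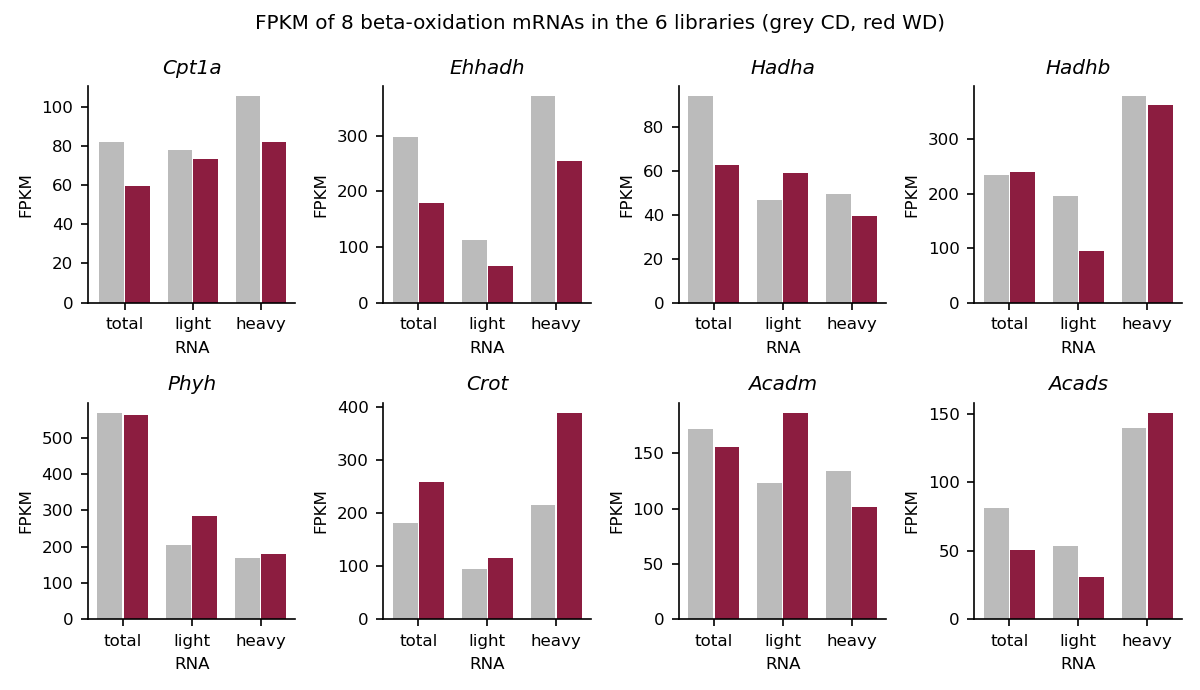
FPKM of 8 genes in total RNA and in the light and heavy fractions, with grey bars for CD and red bars for WD, 1 pooled library per bar and axes starting at 0. Cpt1a and Ehhadh are lower in WD in all 3 kinds of RNA, Crot is higher in all 3, and Hadha and Hadhb differ in opposite directions in the light fraction.

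Among the peroxisomal genes, Ehhadh (chromosome 11, 82945103 to 82978364) is the bifunctional enzyme of the straight-chain spiral. It had the narrowest interval in total RNA among the genes whose interval there lay below 1. It had 298 (CD) and 179 (WD) FPKM in total RNA, 112 and 66.1 in the light fraction, and 371 and 255 in the heavy fraction. The ratios of 0.601 (0.541 to 0.667), 0.591 (0.499 to 0.698) and 0.687 (0.615 to 0.767) all had intervals below 1. Hsd17b4, the other bifunctional enzyme, which serves branched-chain and bile acid intermediates, had 307 and 290 FPKM in total RNA and a ratio of 0.945. The level of Ehhadh relative to Hsd17b4 was 0.971 in CD and 0.618 in WD total RNA.

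Decr2 (chromosome 10, 15431637 to 15465413), the peroxisomal dienoyl-CoA reductase, had 112 and 79.8 FPKM in total RNA, 136 and 81.4 in the light fraction, and 295 and 200 in the heavy fraction. Its ratios of 0.713, 0.600 and 0.679 stood close to those of Eci1. Pex11a (chromosome 1, 141474179 to 141481315), which acts in peroxisome division, had 38.5 and 23.8 FPKM in total RNA, 32.7 and 21.2 in the light fraction, and 22.1 and 12.1 in the heavy fraction. All 3 ratios were at most 0.75 with intervals below 1, namely 0.619 (0.435 to 0.872), 0.648 (0.451 to 0.935) and 0.548 (0.294 to 0.984). Abcd3, the membrane carrier that brings acyl-CoA into peroxisomes, had 147 and 118 FPKM in total RNA, 142 and 95.3 in the light fraction, and 170 and 90.2 in the heavy fraction. The intervals of its ratios, 0.804 (0.704 to 0.918), 0.670 (0.583 to 0.771) and 0.530 (0.446 to 0.629), also lay below 1 in every kind of RNA. Ehhadh, Pex11a and Abcd3 were the only ones of the 23 genes with fragment numbers for which this held.

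Crot (chromosome 4, 22081603 to 22116265), the carnitine octanoyltransferase that exports shortened acyl groups from peroxisomes, went the other way. It had 181 (CD) and 258 (WD) FPKM in total RNA, 95.1 and 115 in the light fraction, and 216 and 390 in the heavy fraction. Its ratios of 1.43, 1.21 and 1.80 were higher in WD in each kind of RNA, and the last was the only heavy fraction ratio of at least 1.5 among the 29 genes, against 21.7% of all loci and 13.3% of those averaging 10 FPKM or more. No fragment number could be inferred for Crot, so its counting error is not known. Acox2, the oxidase for bile acid intermediates, was the only other gene above 1 throughout, with ratios of 1.01, 2.00 and 1.18. The interval for its light fraction was 1.47 to 2.77, and the other intervals included 1. Acox3, an oxidase for branched-chain acids, had ratios of 0.858, 1.12 and 0.989, and Acaa1a, a peroxisomal thiolase, had 1.23, 0.755 and 1.05, all with intervals that included 1. Phyh and Hacl1, which act in alpha-oxidation, had total RNA ratios of 0.988 (0.900 to 1.08) and 1.04 (0.807 to 1.33).

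The heavy fraction showed a similar lean, and the light fraction did so in direction but not in the share at or under 0.75. In the heavy fraction, 22 of 29 genes were lower in WD, against 50.4% of all loci, and 10 lay at or under 0.75, against 25.8%, or 19.2% of loci averaging 10 FPKM or more. The counting interval lay below 1 for 10 of 23 genes, against 5.3% of loci and 8.56% of those averaging 10 FPKM or more, and above 1 for 0, against 4.83%. In the light fraction, 20 of 29 genes were lower, against 47.2% of loci and 53.0% of those averaging 10 FPKM or more. A light fraction ratio of at most 0.75 was reached by 8 genes (27.6%), against 26.8% of loci and 27.2% of those averaging 10 FPKM or more, a share near the background. One of at least 1.5 was reached by Acadm, Acot2 and Acox2, against 25.9% and 17.1%. The light fraction intervals lay below 1 for 8 and above 1 for 3 of 23 genes, against 10.4% and 9.89% of loci, or 19.3% and 14.0% of those averaging 10 FPKM or more. After rescaling to equal sums, 25 of 29 genes were lower in the light fraction and 4 higher, while 63.8% of all loci were lower. Of the 29 genes, 13 were lower in WD in all 3 kinds of RNA, a count for which no share of all loci was computed. These were Cpt1a, Cpt2, Acaa2, Eci1, Decr1, Etfb, Etfdh, Ehhadh, Hsd17b4, Decr2, Abcd3, Pex11a and Acad11.

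Mitochondrial and peroxisomal genes were set side by side. In total RNA, 14 of 17 mitochondrial genes were lower in WD and 8 had a ratio of at most 0.75, with a median ratio of 0.848. Of 11 peroxisomal genes, 7 were lower and 3 had a ratio of at most 0.75, with a median of 0.945. The mitochondrial median was lower by 0.16 on the log2 scale. The ranges overlapped, from 0.424 for Acot2 to 1.16 for Etfa among mitochondrial genes and from 0.601 for Ehhadh to 1.43 for Crot among peroxisomal ones. In the heavy fraction, 15 of 17 mitochondrial genes were lower with a median ratio of 0.784, and 6 of 11 peroxisomal genes were lower with a median of 0.989. In the light fraction the medians were close, at 0.827 and 0.819. None of these differences was tested, since genes are not replicates of a diet. With the enzymes of the spirals alone, without transport, electron transfer, thioesterase, division and alpha-oxidation genes, the difference in total RNA was -0.023 on the log2 scale.

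Ribosome density was taken as the ratio of heavy to light FPKM of a gene within a diet. FPKM is scaled within each fraction, so the ratio ranks an mRNA against other mRNAs and does not give the share of its copies on ribosomes. In CD, 27 of 29 genes (93.1%) were higher in the heavy than in the light fraction, against 50.2% of all loci, and in WD 23 of 29 (79.3%), against 48.5%. Among loci averaging 10 FPKM or more the shares were 53.7% and 55.7%. The median heavy to light ratio was 2.27 in CD and 3.20 in WD, and that of all loci was 1.01 and 1.00. In both diets it was above 3 for 12 genes, a count for which no share of all loci was computed. These were Acadvl, Acaa2, Eci1, Decr1, Etfb, Etfdh, Acox3, Ehhadh, Hsd17b4, Acaa1a, Hacl1 and Acad11. The highest heavy to light ratio was that of Acaa1a, with 5.83 (95% interval 3.79 to 9.35) in CD and 8.09 (5.71 to 11.8) in WD.

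Some genes stood low. Pex11a had a heavy to light ratio of 0.677 in CD and 0.572 in WD, and Phyh had 0.822 in CD (0.672 to 1.00) and 0.628 in WD (0.532 to 0.738). These were the 2 genes below 1 in CD. Phyh was first in level in total RNA, with 570 and 563 FPKM, but had 204 and 285 FPKM in the light and 168 and 179 FPKM in the heavy fraction. Its heavy to total ratio of 0.295 in CD and 0.318 in WD was the lowest of the 29 genes. In WD, Acadm, Hadha, Slc25a20 and Abcd3 were below 1 as well. The WD interval lay below 1 for 4 of the 23 genes with fragment numbers, namely Acadm, Hadha, Pex11a and Phyh. That share was no higher than the 18.5% of loci and 24.9% of those averaging 10 FPKM or more. Across the 29 genes the heavy to light ratios of both diets followed each other, with Pearson's r of 0.882 and Spearman's rho of 0.843, as a description over genes of the same libraries. Across the 23 genes with fragment numbers, the modelled transcript length relative to that of Etfb, which ran from 1.0 to 7.96 for Hacl1, had r of -0.148 and rho of -0.160 with the CD ratio.

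**Figure D3:**
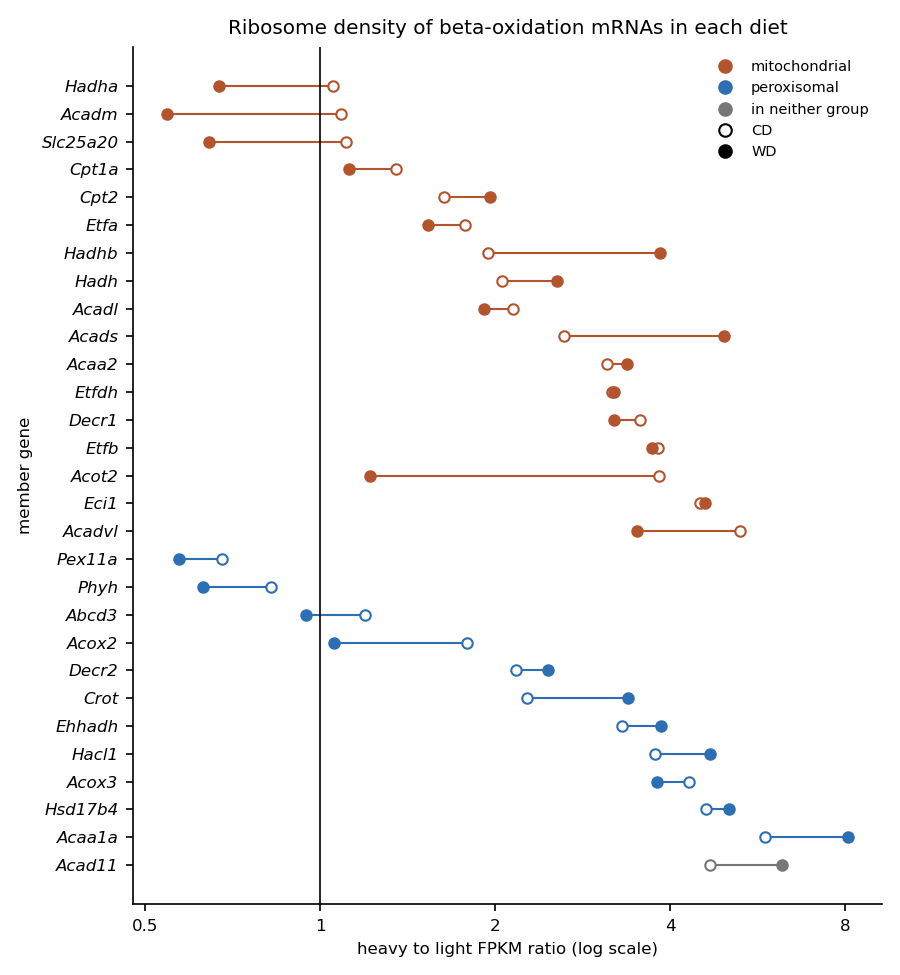
Heavy to light FPKM ratio of each of the 29 genes in CD (open circles) and WD (filled circles) on a log axis, grouped by compartment and ordered by the CD ratio. Most genes lie right of 1 in both diets, Pex11a and Phyh lie left of 1 in both, and the longest lines are those of Acot2, Acadm, Hadhb and Acads.

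The change in ribosome density, the WD ratio over the CD ratio, showed no common direction. It was higher in 14 and lower in 15 of 29 genes, against 48.3% and 50.7% of all loci, with a median of 0.977, and that of all loci was 0.986. Densities of at most 0.75 times CD were found for 6 genes, against 36.1% of all loci, and of at least 1.5 times CD for 2, against 27.7%, so both shares were below those of all loci, and also below the 27.6% and 23.3% of loci averaging 10 FPKM or more. The counting interval lay below 1 for 7 of 23 genes, against 5.75% of loci, and above 1 for 3 of 23, against 6.67%. Among loci averaging 10 FPKM or more these shares were 8.46% and 12.0%. The direction depends on the scale here too. After rescaling to equal sums, which moved the median log2 change of all loci from -0.02 to 0.28, 21 genes were higher and 8 lower, against 39.3% of all loci lower.

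Hadhb and Acads were the 2 with higher density. For Hadhb the heavy to light ratio went from 1.94 in CD to 3.84 in WD, a change of 1.98 (1.59 to 2.46), and for Acads from 2.62 to 4.94, a change of 1.88 (1.25 to 2.84). Crot followed with 2.27 and 3.38, a change of 1.49 that lay just inside the limit. Hadh, with 2.06 and 2.56, had a smaller change of 1.24 whose interval also lay above 1 (1.06 to 1.46). The lower densities were those of Acot2, Acadm, Slc25a20, Acox2, Hadha and Acadvl. Acot2 went from 3.82 to 1.22, a change of 0.319 (0.119 to 0.804), and Acadm from 1.09 to 0.546, a change of 0.502 (0.374 to 0.674). Slc25a20 went from 1.11 to 0.644, a change of 0.581 whose interval included 1 (0.274 to 1.22). Acox2 had a change of 0.592 (0.380 to 0.917), Hadha of 0.636 (0.431 to 0.938) and Acadvl of 0.663 (0.468 to 0.935). Phyh (0.764, 0.589 to 0.993) and Abcd3 (0.792, 0.633 to 0.990) lay just outside the limit with intervals below 1.

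In 6 of these 8 genes, namely Acadm, Acads, Hadha, Hadhb, Acot2 and Acox2, the light fraction differed more between diets than the heavy fraction did, and the WD light fraction is the library that stood apart. Its part in these values was not tested. With total RNA as the denominator, the density change had the opposite sign for 13 of the 29 genes, and for neither count was the share of all loci computed. Of those past a limit, the log2 change became 0.26 for Hadha, -0.10 for Hadhb, 0.56 for Acot2 and 0.23 for Acox2. That of Phyh, which was not past a limit, became 0.11. Acads kept its direction, with a heavy to total ratio of 1.72 in CD and 3.00 in WD, as did Acadm, with 0.779 and 0.653, and Acadvl, with 3.07 and 2.29, and Slc25a20 was near equal, with 1.31 and 1.29. The median density change was 0.903 for mitochondrial and 1.09 for peroxisomal genes, a difference of -0.28 on the log2 scale that was not tested and became -0.10 with total RNA as the denominator.

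**Figure D4:**
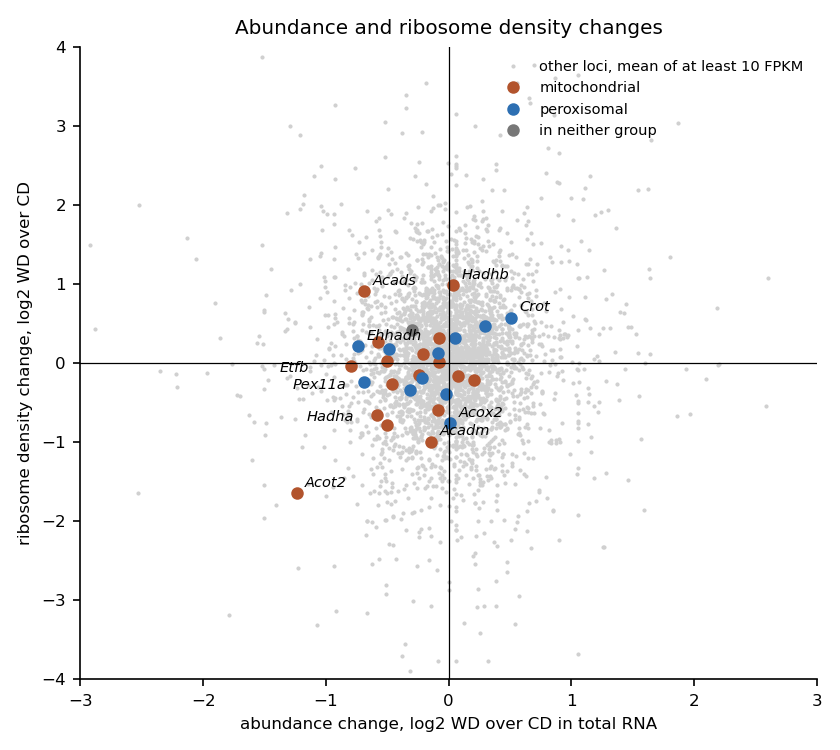
Log2 change in total RNA abundance (horizontal) against log2 change in ribosome density (vertical), WD over CD, for 3818 loci averaging 10 FPKM or more (grey) and the 29 genes coloured by compartment. A further 251 loci lie outside the axes, 22 of the 29 genes lie left of 0, and above and below the horizontal line they number 14 and 15.

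Other genes around the pathway were described from lists, whose counts in total RNA stand against the same 22.7% of all loci at or under 0.75 and 17.7% at or over 1.5. Of 12 genes of acyl-CoA activation and fatty acid uptake, 1 had a total RNA ratio of at most 0.75 and 1 of at least 1.5. These were Acsm5, with 39.3 and 23.0 FPKM and a ratio of 0.587 (0.414 to 0.820), and Acsm3, with 2.97 and 11.7 FPKM and a ratio of 3.83 (1.76 to 9.90), both medium-chain acyl-CoA synthetases. Of 15 other peroxisomal oxidation genes, 13 were lower in WD, against 47.0% of all loci, with a median log2 change of -0.20. A ratio of at most 0.75 was reached by 3 of the 15, a share near that of all loci. Cat, the catalase that removes the hydrogen peroxide of the oxidases, had 1647 and 1499 FPKM (0.910), and the thioesterase Acot4 had 24.97 and 12.7 FPKM (0.509, 0.324 to 0.780). The other ratios past a limit in that list were those of Acot3, Nudt19 and Acot8, which averaged under 10 FPKM and had intervals that included 1. The 14 peroxisome biogenesis genes had a median log2 change of 0.19, with 3 ratios of at least 1.5 (Pex2, Pex26 and Pex11g, each under 10 FPKM on average with an interval that included 1) and 0 of at most 0.75, and the lowest log2 change among them was -0.33, against -0.69 for Pex11a.

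Of 13 other mitochondrial acyl-CoA dehydrogenase and thioesterase genes, 2 had a ratio of at most 0.75 and 2 of at least 1.5, with a median log2 change of 0.08. The 2 higher ones were Acad8, the isobutyryl-CoA dehydrogenase of valine breakdown (2.92, 1.11 to 9.18), and Acad9, which assembles complex I (1.61), and the 2 lower ones were Hibch and Acot9, which averaged under 10 FPKM. Of 15 regulators of fatty acid oxidation, 7 had a ratio of at most 0.75 and 1 of at least 1.5, with a median log2 change of -0.27. Ppara itself was at 57.2 FPKM in CD and 58.6 in WD, a ratio of 1.02. It was at 71.2 and 38.8 FPKM in the light fraction and at 111 and 80.7 FPKM in the heavy fraction. Its heavy to light ratio was thus 1.56 in CD and 2.08 in WD. The heavy fraction level was itself lower in WD, with a ratio of 0.727. Relative to total RNA it was therefore lower in WD, the opposite direction. No counting interval could be given for Ppara. Lower in WD were Creb3l3, a liver transcription factor of fasting (192 and 141 FPKM, 0.733, 0.624 to 0.860), the orphan receptor Esrra (8.10 and 2.81 FPKM, 0.354), Acaca, which makes malonyl-CoA (21.3 and 14.9 FPKM, 0.703), Mlycd, which removes it (36.3 and 27.1 FPKM, 0.748, 0.519 to 1.07), and the sterol receptor Nr1h3 (32.3 and 21.0 FPKM, 0.652, 0.408 to 1.02). Ppargc1b and Acacb, the other lower ones, averaged under 10 FPKM. Sirt3, a mitochondrial deacetylase, had 7.40 and 13.9 FPKM (1.87), with an interval of 0.824 to 4.56 that included 1.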

How the data were processed

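RNA-seq of rat liver was analysed in 6 pooled libraries, 1 per diet and kind of RNA. Per the labels and the study's methods, the authors depleted ribosomal RNA, used TopHat for alignment to the Rnor_6.0 assembly and Cufflinks with Cuffnorm for quantification. They deposited FPKM for each locus, with lower and upper bounds also in FPKM. The annotation is not given in the sources used here. The methods also describe an alignment route for ribosome profiling, and whether it was applied to the gradient fractions is not stated.

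Ratios of WD over CD were computed from the deposited FPKM after adding 0.1 FPKM. Loci were compared if they had a symbol, an estimate marked OK and at least 1 FPKM on average. The limits of 1.5 and 0.75 come from the study's methods, which apply them to the density of CD over WD, whereas here they were applied to WD over CD and to abundance too. With 1 library per group no p-value was computed. Whole fragment numbers were inferred from ratios of FPKM between libraries for 76.8% of 12459 loci (0.144% after values were jittered by 1%), which gave 465012 to 1070366 fragments in the loci compared per library. Intervals are exact at 95%. Tested on simulated data for the abundance comparison, 99.6% of 7558 genes were given numbers and 98.2% had them exactly right. All 200 planted changes were recovered, and the interval included 1 for 97.2% of 7327 unchanged genes. Simulated fragments varied by counting error alone, so this last share does not cover variation between rats or libraries. The recovery holds only for changes of the planted size and depth. Whether changes as small as those reported here, or changes in genes with few fragments, would be recovered was not tested.

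The genes and lists were chosen with earlier results of these data known. Genes past a limit in total RNA, or with the 3 highest or 3 lowest density changes, have all 6 values given, as do Abcd3 and Phyh, which were added after their values were seen. Genes of other lists are named if past a limit in total RNA with a mean of at least 10 FPKM, or if they are Ppara or Cat; the rule's remaining gene is not reported here. Those said to average under 10 FPKM were named after their values were seen. Alternatives varied the pseudocount, the filter, the scaling, the density measure, the compartments and the direction of the limits. Promoter sequences are from RefSeq (GRCr8). Statistics used scipy 1.17.1 and numpy 2.4.6, tables pandas 2.3.3 and figures matplotlib 3.10.9, under Python 3.11.15.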

Additional observations from a re-analysis of the deposited data

How the results depend on the processing

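No paired analysis was possible because each group holds 1 library, and for the same reason no library could be left out within a group. With pseudocounts of 1 and 0.01 FPKM, with the filter set to 10 FPKM or removed, and with changes centred on all loci, the medians moved by less than 0.1 on the log2 scale and the counts by no more than 1.5 times. After the libraries were put on an equal sum of FPKM over named loci, 7 genes in place of 11 had an abundance ratio of at most 0.75 and 1 in place of 0 a ratio of at least 1.5. Under that scaling the median log2 change became -0.64 in place of -0.29 in the light fraction and 0.30 in place of -0.03 for ribosome density, and 8 genes in place of 2 had a density ratio of at least 1.5. The WD light fraction had the largest sum, 867734 FPKM against 617369 to 700724 in the others. By construction this sets the direction of the light fraction and density shifts. That of the abundance counts is set by the sums of total RNA, 659742 FPKM in CD and 617369 in WD. With heavy over total RNA, 1 gene had a density ratio of at least 1.5, the difference between mitochondrial and peroxisomal medians was -0.10 in place of -0.28, and the log2 density changes of Hadha (0.26), Hadhb (-0.10), Acot2 (0.56) and Acox2 (0.23) turned direction. So did those of 9 genes not past a limit, among them Phyh (0.11), Cpt1a (0.10), Acox3 (0.21) and Acaa1a (-0.23). With spiral enzymes only, the abundance difference was -0.023 in place of -0.16. The cause of the changes without the light fraction or with fewer genes was not tested. Counting Acad11 as peroxisomal moved neither difference by 0.1, and Eci2, planned with it, had no row. With the limits on CD over WD, chosen after the data were seen, 4 genes had a higher density (Acads, Hadhb, Acaa1a and Crot) and 6 a lower one, against 32.9% and 30.9% of all loci. Of single genes' changes, 12 of 58 left their interval (or, without one, moved by 0.1 or more) after rescaling, and 15 of 29 with heavy over total RNA. Depth limits Acot2, Pex11a, Slc25a20, Acaa1a and Decr1, each with under 30 fragments in a library.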

Other observations

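Besides Echs1, Pex5, the import receptor for peroxisomal enzymes and 1 of the 15 peroxisome biogenesis genes found, was listed at 0 in all 6 libraries; it was named after its values were seen. A value of 0 for genes that liver uses can be a failed estimate, and neither was read as absence of expression.

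In the light fraction, the level of Acadl relative to Acadm was 2.08 in CD (95% counting interval 1.70 to 2.54) and 1.09 in WD (0.956 to 1.23), while in the heavy fraction it was 4.11 (3.45 to 4.92) and 3.81 (3.12 to 4.68) and in total RNA 2.197 (1.92 to 2.52) and 2.56 (2.22 to 2.96). The intervals of the diets overlapped in total RNA and in the heavy fraction but not in the light fraction. The level of Cpt1a relative to Cpt2 was 3.08 in CD and 3.34 in WD total RNA, with intervals that overlapped (2.37 to 4.05 and 2.41 to 4.72).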
